A study of Mus musculus with 4 samples.

Results

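The 10 transcription factor genes described here are Gata3, the AP-2 genes Tfap2a and Tfap2c, the nuclear factor I genes Nfia, Nfib, Nfic and Nfix, and the C/EBP genes Cebpa, Cebpb and Cebpd. They were chosen by symbol as regulators of luminal and alveolar differentiation, out of 18193 genes with a symbol of their own on the array, and 35 probe sets carry their names. RNA of mouse mammary tissue was hybridised to 4 Affymetrix arrays, 2 from mice labelled STAT5 WT and 2 from mice labelled STAT5 KO. The design text gives 2 mice per genotype and a collection time of 6 days, without the event it is counted from, and the title places the study in the development of luminal progenitors under STAT5A. The labels give no treatment and name no strain, age, allele or Cre driver, so what limits the KO as a model is not known from them. Values are MAS5 signals, the intensity of a probe set on a linear scale.

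Luminal cells line the ducts and alveoli of the mammary gland, and prolactin acts on them through STAT5 to build alveoli and switch on milk protein genes. GATA3 is a zinc finger factor that sets up and maintains the luminal fate, and AP-2 factors act with it and with the oestrogen receptor in luminal cells. NFI and C/EBP factors bind the promoters of casein and whey acidic protein genes beside STAT5, and C/EBP factors also drive fat cell differentiation and inflammatory gene programmes, so in whole tissue their RNA comes from several cell types.

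On the array of the whole tissue, Tfap2c stood at 37.9% of its WT level in KO and Cebpd at 254%, and the other 8 genes stood between 70.4% and 134%. Of the members, 0 passed the threshold of 0.05 on the adjusted p (limma, Benjamini-Hochberg over all tested probe sets), against 2.57% of the 11360 genes tested, 1.21% higher and 1.36% lower. At an unadjusted p under 0.05 there were 4 members, Tfap2c, Cebpd, Nfia and Tfap2a, against 21.3% of all tested genes. The 2 genotypes were apart, with no overlap, for 3 members that were higher and 4 that were lower in KO, against 53.7% of all tested genes, 26.2% higher and 27.5% lower. Over the 33 tested probe sets of the members, 7 were higher and 16 lower in this way, against 51.9% of all tested probe sets. The probe sets of 1 gene read the same RNA, so the members' counts are not independent. The median log2 difference of the members was -0.22, and that of all tested genes -0.01. A difference here is the KO mean minus the WT mean of log2(signal + 16), and all 10 members passed the filter on dim probe sets with their brightest probe set, which stands for the gene.

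**Figure D1:**
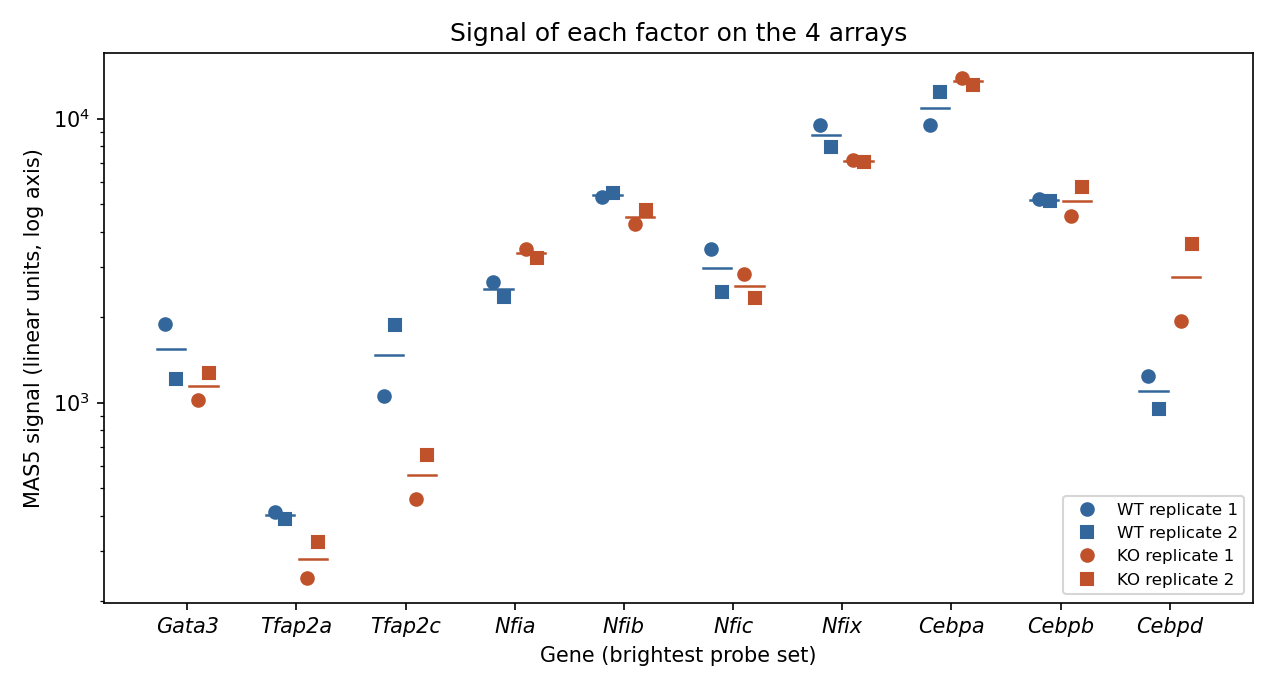
MAS5 signal of each factor on a log axis, 1 point per array (blue WT, orange KO) and a line at each group's mean, for the brightest probe set of each gene. The KO points of Tfap2c, 458 and 654, lie below both WT points, and those of Cebpd, 1940 and 3619, above both. Signals of different genes come from different probes and were not set against each other.

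The median signal was 121 to 131 over the 4 arrays. The mean trimmed by 2% at each end was 500 on every array, a value set by the authors' scaling. Stat5a and Stat5b still gave signal on both KO arrays. In each of their 4 probe sets the KO arrays were the 2 lowest, and none passed the threshold (log2 differences of -1.22 to -0.78, limma adjusted p of 0.102 to 0.246). Epithelial cells were present on all 4 arrays by their markers. The summed signal of 16 epithelial markers was 48318 and 49989 on the WT arrays, 35114 on KO replicate 1 and 55174 on KO replicate 2, and none was at 0. Their median log2 difference was -0.40, and -0.05 without KO replicate 1, so the KO arrays differed in epithelial signal. In whole tissue fewer cells of a type and less RNA per cell cannot be told apart.

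Gata3, the luminal fate factor, overlapped between the genotypes. Its single probe set stood at 1890.3 and 1210.5 on WT replicates 1 and 2 and at 1026 and 1271 on KO replicates 1 and 2. WT replicate 1 was the highest of the 4, and the other 3 arrays lay close together. The mean was 1550.4 ± 481 in WT and 1148 ± 174 in KO (SD, n = 2), a log2 difference of -0.40 (SE 0.23, 95% interval -0.95 to 0.15, limma adjusted p = 0.395). Without WT replicate 1 the difference was -0.08, and without WT replicate 2 it was -0.72. Gata3 is also a factor of T cells, whose marker Cd3e stood at 192 and 404 in WT and at 28.1 and 353 in KO. Of the 7 T cell markers on the array, Cd3e and Thy1 passed the filter on dim probe sets. Thy1, which other cells express too, stood at 3321 and 3921 in WT and at 3986 and 3604 in KO. Over all 7 the signals summed to 3883 and 4663 in WT and to 4287 and 4202 in KO, most of it from Thy1. Below the filter, Cd3d, Cd3g and Cd2 were lower on both KO arrays, and Cd4 and Cd8a overlapped. None of the 7 was at 0, and the part of T cells in the Gata3 signal was not tested.

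Among AP-2 genes, Tfap2c, which encodes the AP-2 gamma of luminal and progenitor cells, had the largest difference of the members in the values as reported. Cebpd had a larger one in some other fits. These included centring on the array median or on epithelial markers, and leaving out KO replicate 1 or WT replicate 2. The brightest probe set of Tfap2c stood at 1056 and 1879 in WT and at 458 and 654 in KO. Both KO arrays lay below both WT arrays, and the WT arrays differed from each other by more than the higher KO array did from the lower WT array. The mean was 1467 ± 582 in WT and 556 ± 139 in KO (SD, n = 2), a log2 difference of -1.34 (SE 0.30, 95% interval -2.04 to -0.64, limma adjusted p = 0.0700). The other 2 probe sets of Tfap2c gave -1.29 (adjusted p = 0.0640) and -1.34 (adjusted p = 0.104), and in all 3 the groups did not overlap. Of all tested genes, 2.72% were at least 2-fold lower in KO. The difference passed without KO replicate 2 (-1.59, limma adjusted p = 0.0276), where the lone KO array is assumed to vary like the WT arrays, and stood at -0.93 without WT replicate 2 (adjusted p = 0.266). Centred on the epithelial markers it was -1.13 (adjusted p = 0.197). In that fit the spread followed the signal alone and not each probe set's own replicates. Of the 16 epithelial markers 8 were lower on both KO arrays, 3 were higher and 5 overlapped, against 27.5% and 26.2% of all tested genes. None of the lower ones passed the threshold, and 1 of the higher ones did, Krt7 (1.02, limma adjusted p = 0.0484), whose adjusted p was 0.137 and 0.194 without WT replicate 1 and 2. Their part in the Tfap2c difference was not tested.

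Tfap2a, which encodes AP-2 alpha, differed less. Its brightest probe set stood at 411 and 390.0 in WT and at 242 and 322 in KO, with both KO arrays below both WT arrays. The log2 difference was -0.50 (SE 0.20, 95% interval -0.96 to -0.03, limma adjusted p = 0.230). Its other probe sets gave -0.22 and -0.15, and in the last of these the groups overlapped. The ratio of Tfap2a to Tfap2c within an array was highest on the KO arrays, by 0.84 on the log2 scale. The WT arrays differed from each other by 0.90 in this ratio, more than the genotypes did, and the KO arrays by 0.11. Over the 10 paralog pairs a two-sided exact permutation test was run, whose smallest possible p with 2 arrays per genotype is 0.333, and the smallest adjusted value was 0.556. Tfap2b, the AP-2 beta gene, stood at 1160.5 and 1321 in WT and at 969 and 1982 in KO, a log2 difference of 0.16 (limma adjusted p = 0.824).

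**Figure D2:**
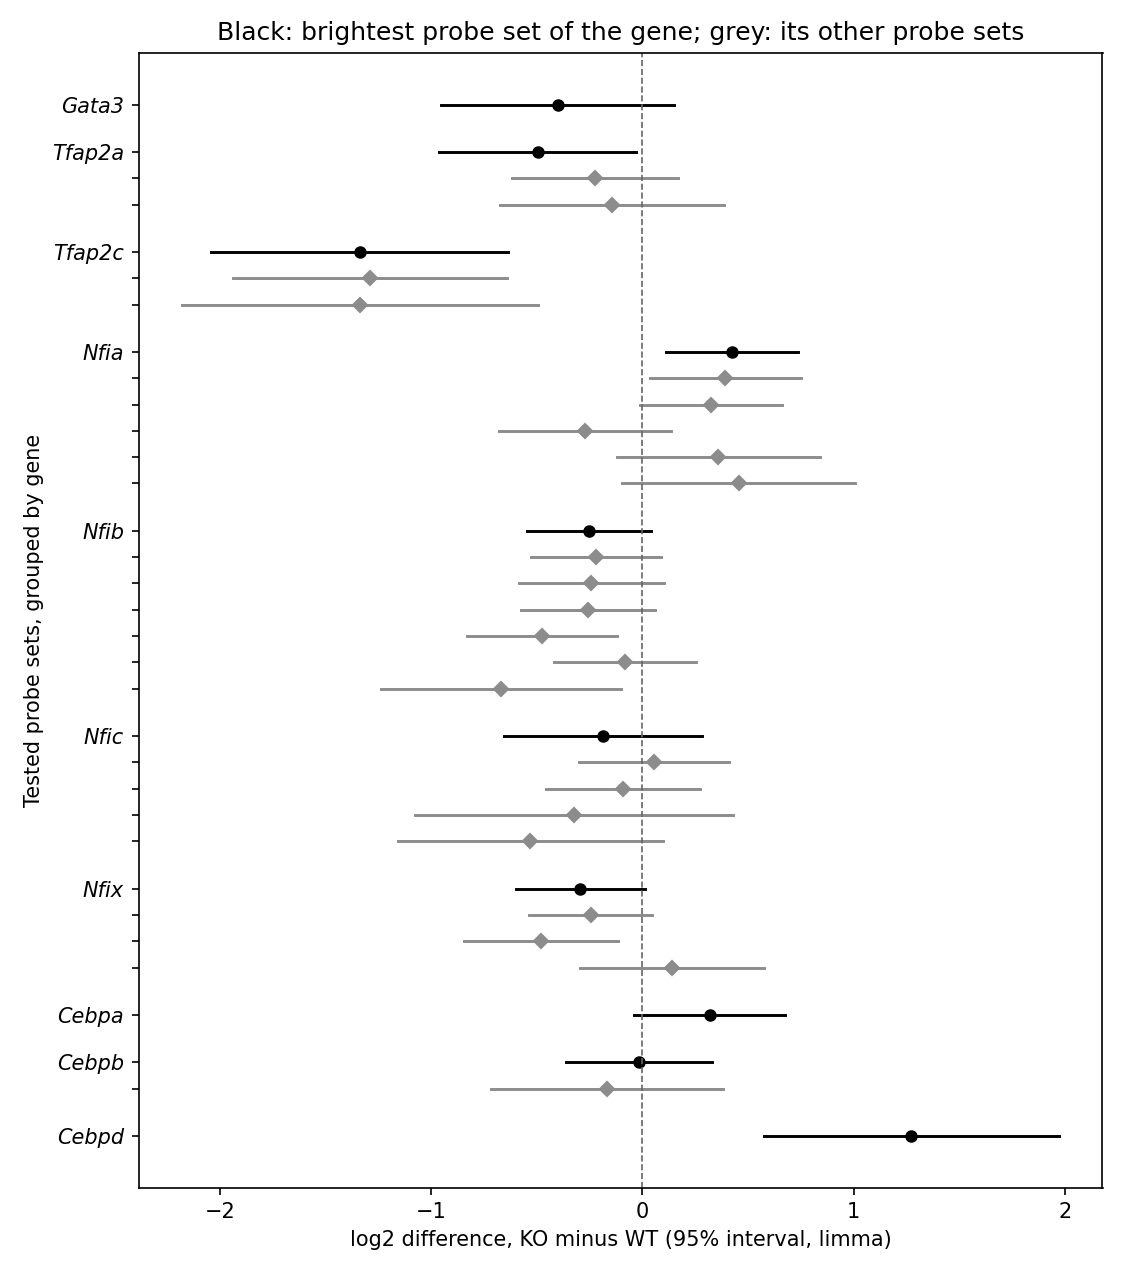
Log2 difference, KO minus WT, of the 33 tested probe sets of the 10 genes (points) with 95% intervals from limma (lines). Black marks the brightest probe set of a gene and grey its other probe sets. The 3 probe sets of Tfap2c lie together between -1.34 and -1.29, the 7 of Nfib all lie below 0, and 5 of the 6 of Nfia lie above 0.

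NFI genes were split, with Nfia higher in KO and the other 3 lower in their brightest probe sets, and none passed the threshold. Nfia stood at 2658 and 2352 in WT and at 3475 and 3243 in KO, and both KO arrays lay above both WT arrays. The log2 difference was 0.42 (SE 0.13, 95% interval 0.11 to 0.74, limma adjusted p = 0.147). In 5 of its 6 probe sets both KO arrays were higher, by 0.32 to 0.46. The sixth went the other way, at 489 and 514 in WT and 375 and 455 in KO, a log2 difference of -0.27 (limma adjusted p = 0.439). The files do not say which part of the transcript each probe set reads.

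Nfib, an NFI gene tied to milk gene regulation, stood at 5280.2 and 5460.5 in WT and at 4253 and 4768 in KO. Both KO arrays were lower, at 79.2% and 88.8% of the WT mean. The log2 difference was -0.25 (SE 0.12, 95% interval -0.55 to 0.04, limma adjusted p = 0.316). In all 7 of its probe sets both KO arrays were lower, with differences from -0.67 to -0.08 and adjusted p of 0.150 or more. These 7 read the same 4 RNA samples and are not independent replicates.

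Nfix stood at 9497 and 7970.2 in WT and at 7153 and 7037 in KO. The KO arrays agreed closely and lay below both WT arrays, a log2 difference of -0.29 (SE 0.13, 95% interval -0.60 to 0.01, limma adjusted p = 0.271). In 3 of its 4 tested probe sets both KO arrays were lower, with differences of -0.48 to -0.25, and a dimmer one gave 0.14 with overlapping groups. Nfic, another ubiquitous NFI gene, stood at 3489 and 2456 in WT and at 2835 and 2331 in KO, with overlapping groups and a log2 difference of -0.19 (SE 0.20, limma adjusted p = 0.658). The groups overlapped in all 5 of its probe sets, with differences from -0.53 to 0.06. Without WT replicate 1 the Nfic difference turned to 0.065, and centred on epithelial markers to 0.024.

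Set against its paralogs within each array, Nfia was higher on both KO arrays in all 3 ratios. The ratio of Nfia to Nfix was higher by 0.72 on the log2 scale, where the WT arrays differed from each other by 0.08 and the KO arrays by 0.08. The ratio to Nfib was higher by 0.68, with 0.22 within WT and 0.26 within KO, and the ratio to Nfic by 0.61, with 0.33 and 0.18. These ratios share Nfia. Each shift was larger than the spread within either genotype, and each exact permutation p was 0.333, the smallest that 2 against 2 arrays allow. The 3 pairs among Nfib, Nfic and Nfix overlapped, with shifts of -0.07, 0.04 and 0.11. With an array left out, or with other settings, the 3 Nfia ratios stayed between 0.45 and 0.81.

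**Figure D3:**
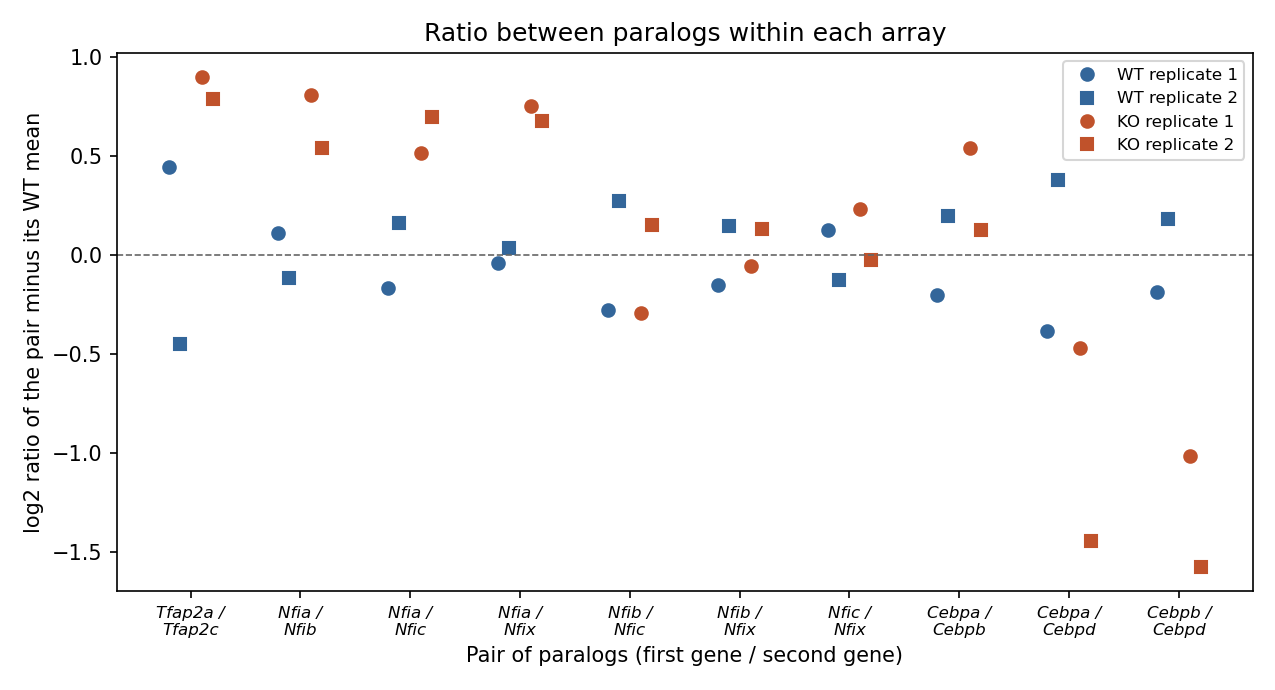
Log2 ratio of each pair of paralogs within an array, as the difference from the pair's WT mean, 1 point per array (blue WT, orange KO). The 3 ratios with Nfia on top lie higher on both KO arrays, and those of Cebpa and Cebpb to Cebpd lie lower. The pairs Nfib and Nfic, Nfib and Nfix, Nfic and Nfix, and Cebpa and Cebpb overlap.

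The promoter windows of 3 NFI genes are given to show their letters. They are the 250 bases before the annotated start of each gene, from RefSeq on GRCm38.p6, 5′ to 3′ on the gene's strand, with matches to the STAT motif TTCNNNGAA (read the same on both strands) in capitals. Nfia lies at chr4:97581693-97581942 (+), Nfic at chr10:81427174-81427423 (-) and the second of the 4 annotated windows of Nfix at chr8:84775829-84776078 (-).
Nfia: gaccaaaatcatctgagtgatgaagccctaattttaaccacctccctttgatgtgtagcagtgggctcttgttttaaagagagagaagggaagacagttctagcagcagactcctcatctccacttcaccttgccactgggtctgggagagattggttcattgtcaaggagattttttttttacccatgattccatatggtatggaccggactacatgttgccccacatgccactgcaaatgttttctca
Nfic: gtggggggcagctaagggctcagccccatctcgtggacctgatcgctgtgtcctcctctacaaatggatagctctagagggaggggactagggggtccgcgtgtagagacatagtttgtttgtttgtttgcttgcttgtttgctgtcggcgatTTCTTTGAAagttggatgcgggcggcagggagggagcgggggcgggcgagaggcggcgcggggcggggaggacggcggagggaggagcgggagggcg
Nfix, window 2: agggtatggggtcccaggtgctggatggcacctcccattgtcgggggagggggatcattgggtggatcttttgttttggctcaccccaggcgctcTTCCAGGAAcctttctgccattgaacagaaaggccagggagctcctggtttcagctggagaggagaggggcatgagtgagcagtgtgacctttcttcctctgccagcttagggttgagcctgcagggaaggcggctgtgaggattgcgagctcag
The match in Nfic begins 97 bases before the start and that in Nfix 155 bases before it. The Nfia window and the other 3 Nfix windows hold none, so the Nfix window printed is the only one of its 4 with a match. Nfic overlapped between the genotypes in all 5 of its probe sets, and no window was found for Nfib. A link between the motif and the direction in KO was not tested. Windows were found for 7 of the 10 members, Gata3, Tfap2a, Nfia, Nfic, Nfix, Cebpa and Cebpb, 11 in all. The STAT motif was present in 2 of these 11 and in 7.02% of 32851 windows of the same length. The AP-2 motif GCCNNNGGC was present in the Gata3 window, with 3 matches, and in 13.7% of all windows. The GATA motif AGATAA, searched on both strands, was in none of the 11 and in 9.99% of all windows. The short NFI motif TTGGC, searched on both strands, was in 4 of the 11 and in 41.5% of all windows. The C/EBP motif TTNNGNAA, searched on both strands, was in 1, of Tfap2a, and in 36.8%. A match describes letters only and is not a binding site.

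Among C/EBP genes, Cebpd, which encodes the C/EBP delta that STAT3 signalling induces when the gland regresses, stood higher in KO. Its brighter probe set stood at 1242 and 950.5 in WT and at 1940 and 3619 in KO. Both KO arrays lay above both WT arrays, and KO replicate 2 was further above KO replicate 1 than that was above the higher WT array. The mean was 1096 ± 206 in WT and 2779 ± 1187 in KO (SD, n = 2), a log2 difference of 1.27 (SE 0.29, 95% interval 0.58 to 1.97, limma adjusted p = 0.0774). Of all tested genes, 1.65% were at least 2-fold higher in KO. With a KO array left out, the lone KO array is assumed to vary like the WT arrays. The difference was 1.72 without KO replicate 1, 0.83 without KO replicate 2, 1.46 without WT replicate 1 and 1.08 without WT replicate 2. Centred on the epithelial markers it was 1.48 with an SE of 0.42 and passed (adjusted p = 0.0294), in a fit whose spread followed the signal alone and not each probe set's own replicates. The dimmer probe set, at 54.0 and 15.5 in WT and 71.8 and 105 in KO, was below the filter and not tested.

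Cebpa, the C/EBP alpha gene of fat cells, stood at 9499 and 12377 in WT and at 13905 and 13149 in KO. The KO arrays lay above both WT arrays by a small margin, a log2 difference of 0.32 (SE 0.15, 95% interval -0.04 to 0.67, limma adjusted p = 0.302). Cebpb, whose product is needed for alveolar development, stood at 5201 and 5149 in WT and at 4548 and 5739 in KO. Here KO replicate 1 was the lowest and KO replicate 2 the highest of the 4 arrays, and the log2 difference was -0.02 (SE 0.15, 95% interval -0.36 to 0.33, limma adjusted p = 0.962). This interval leaves room for a difference of either sign. The second Cebpb probe set gave -0.17 with overlapping groups, and the sign of the Cebpb difference turned when arrays were centred on their medians or on epithelial markers, and without KO replicate 1. The ratio of Cebpb to Cebpd was lower on both KO arrays by -1.29 on the log2 scale, with 0.37 within WT and 0.56 within KO. That of Cebpa to Cebpd was lower by -0.96, with 0.76 and 0.97, so the KO arrays differed from each other slightly more than the genotypes did. That of Cebpa to Cebpb shifted by 0.34 with overlapping groups.

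Fat cells and macrophages also express C/EBP genes. White fat markers summed to 83219 and 76969 on the WT arrays and to 83828 and 86168 on the KO arrays. Of these markers, 4 of 7 were higher on both KO arrays, against 26.2% of all tested genes, and 0 passed the threshold. Macrophage markers summed to 32379 and 29546 in WT and to 36588 and 35276 in KO. Among them 4 of 8 were higher on both KO arrays, against 26.2% of all tested genes, and 0 passed (median 0.31). Their most different members were Mrc1, a scavenger receptor (0.57, limma adjusted p = 0.0950), and Cd68, a lysosomal protein (0.56, adjusted p = 0.205). Brown fat markers went the other way, with sums of 14083 and 17982 in WT and 8067 and 9097 in KO. Of these, 4 of 5 were lower on both KO arrays, against 27.5% of all tested genes, and 1 passed (median -0.91). None of the white fat, macrophage and brown fat markers was at 0. The part of these cells in the Cebpd and Cebpa values was not tested.

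The genes around these factors were read from lists by role. Of 14 luminal lineage regulators tested, 4 fell, 1 rose and 9 did not pass, with a median of -0.15. Among all tested genes 1.36% fell and 1.21% rose past the threshold. Among those that fell were Myb, a progenitor factor (-1.93, limma adjusted p = 0.0159), Elf5, an alveolar ETS factor (-1.10, adjusted p = 0.0324), and Cited1, a coregulator (-2.59, adjusted p = 0.0381). Foxa1, the pioneer factor that works with GATA3 and the oestrogen receptor, rose by 1.08 (adjusted p = 0.0369). In a fit without the variance trend only 1 of the list passed, Myb (limma adjusted p = 0.0323). The adjusted p was then 0.0557 for Elf5, 0.0596 for Cited1 and 0.0628 for Foxa1. The number past the threshold was 1 without WT replicate 1, 0 without WT replicate 2 and 0 with no filter. Without WT replicate 1 the adjusted p was 0.0307 for Myb, 0.0855 for Elf5, 0.0956 for Cited1 and 0.0963 for Foxa1, and without WT replicate 2 it was 0.0733, 0.160, 0.165 and 0.0839. Trps1, a GATA-like repressor of luminal cells, and Esr1, the oestrogen receptor gene, were named after their values were seen. Trps1 stood at 3620 and 3658 in WT and 2220.4 and 2467 in KO (log2 difference -0.63, limma adjusted p = 0.0578), and Esr1 at 2372 and 2458 in WT and 3691 and 3181 in KO (0.50, adjusted p = 0.106).

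Milk protein and secretory genes include casein genes whose promoters NFI and C/EBP factors bind beside STAT5. In this list 6 of 9 tested members passed the threshold, against 2.57% of all tested genes. Of these 6, 5 fell and 1 rose, and the median of the 9 tested members was -1.49. The log2 difference was -7.67 for the casein gene Csn1s1 (limma adjusted p = 8.99e-06), -6.35 for the casein gene Csn2 (8.91e-05), -2.83 for the milk fat globule gene Btn1a1 (0.00267) and 3.73 for the lactotransferrin gene Ltf (0.000313). The KO signals of Csn1s1 (37.1 and 35.6), Csn2 (122 and 83.3) and Btn1a1 (77.4 and 94.3) lay below the filter limit of 126, so these 3 were tested through their WT signal and the size of the fall depends on the constant added before log2. With a constant of 1 and of 64 it was -8.16 and -6.74 for Csn1s1, -6.55 and -5.85 for Csn2, and -3.03 and -2.36 for Btn1a1. Wap, Lalba, Glycam1 and Csn1s2b were below the filter on these arrays. The other 2 that fell, Csn1s2a and Csn3, were named after their values were seen. Csn1s2a stood at 2615 and 1822 in WT and at 52.5 and 9.56 in KO, so it too was tested through its WT signal. The count of falls and the median thus rest in part on genes that had to differ to be tested. Csn3, the kappa-casein gene, gave -1.27 (limma adjusted p = 0.0321).

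Of 9 acute phase and STAT3 genes tested, 1 rose, 0 fell and 8 did not pass. Among all tested genes 1.21% rose past the threshold, and the list's median was 0.34. Osmr, the oncostatin M receptor gene, rose by 0.89 (limma adjusted p = 0.0425). Averaged over all its probe sets the difference was 0.43 (adjusted p = 0.162). Its adjusted p was 0.0963 without WT replicate 1, 0.206 without WT replicate 2 and 0.0683 without KO replicate 1. Lcn2 and Cd14, secreted and surface proteins of the inflammatory response, were named after their values were seen. Like Cebpd, both were highest on KO replicate 2, Lcn2 at 3496 and 3076 in WT and 4685 and 6920.3 in KO (log2 difference 0.79, limma adjusted p = 0.0923) and Cd14 at 1748 and 1434 in WT and 2245 and 3411 in KO (0.80, adjusted p = 0.110). Of the other tested genes of this list, Il6ra and Socs3 were also highest on KO replicate 2. The summed signal of the epithelial markers was highest on that array too, at 55174 against 35114 on KO replicate 1. Its part in this order was not tested. Osmr, Il4ra, Hp and Orm1 were highest on KO replicate 1, and Stat3 on WT replicate 2. Stat3 itself was lower on both KO arrays (-0.30, adjusted p = 0.261), and Socs3 overlapped (-0.04).

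Of 15 partners and modulators of these families tested, 0 passed (median -0.0040). Cited2, a coactivator of AP-2, had the largest difference, at 1675 and 1462 in WT and 2475 and 2742 in KO (0.73, limma adjusted p = 0.0546), so it was higher on both KO arrays while both AP-2 members were lower. Kctd1, an inhibitor of AP-2, stood at 577 and 610.3 in WT and 343 and 508 in KO (-0.49, adjusted p = 0.266). Of 5 other family members tested 0 passed, with a median of 0.16. Gata2, a GATA factor of blood and fat precursors, gave 0.33 (adjusted p = 0.302), and Ddit3, the stress-induced C/EBP relative CHOP, 0.33 (adjusted p = 0.307). Of 11 tested fat cell genes downstream of C/EBP factors 0 passed, with a median of 0.07. Their largest differences were those of Lep, the leptin gene (-0.76, adjusted p = 0.600), and Aqp7, a glycerol channel (0.59, adjusted p = 0.230).

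The 3 genes whose pattern over the 4 arrays lay nearest to that of Tfap2c, by the distance of log2 values from their WT means, were the mitotic genes Aurkb, Cdk1 and Ccnb2, at distances of 0.10, 0.11 and 0.15. Each was lowest on KO replicate 1 and highest on WT replicate 2, as Tfap2c was. Cdk1, the mitotic kinase, stood at 978 and 1582 in WT and at 414 and 560.1 in KO, a log2 difference of -1.34 (limma adjusted p = 0.0552). Over 4 arrays many genes can share such an order.

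**Figure D4:**
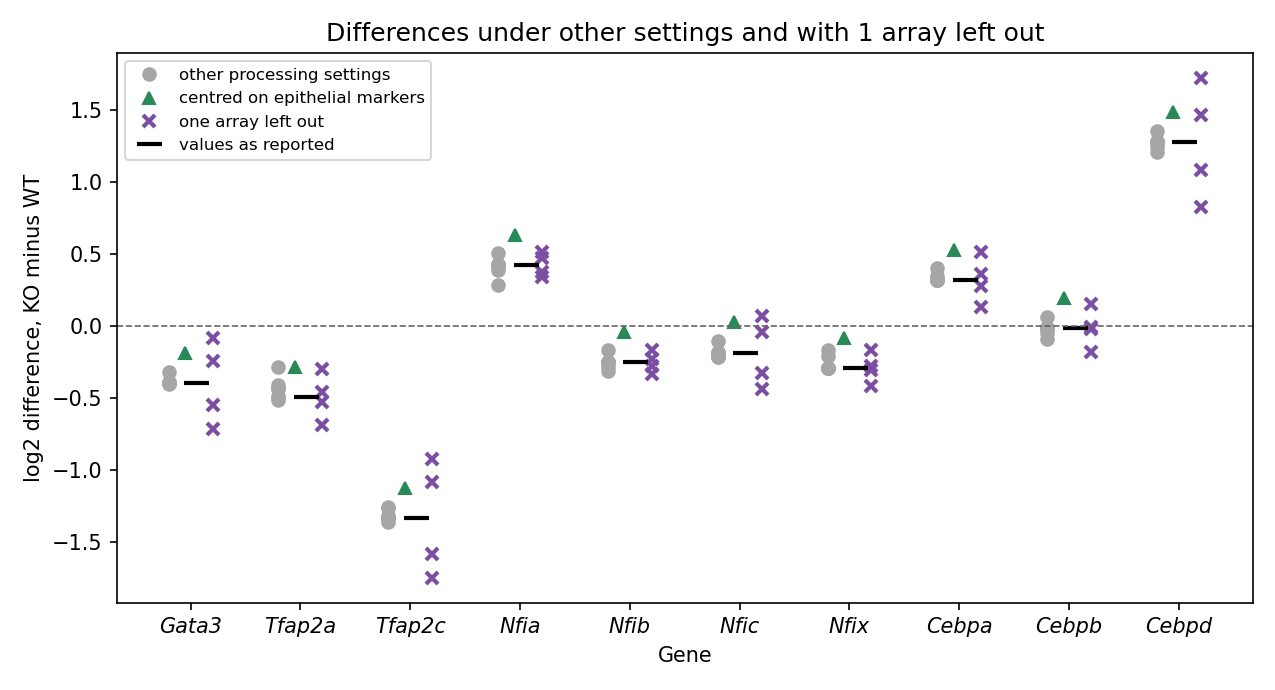
Log2 difference, KO minus WT, of each factor as reported (black bar), under other processing settings (grey), centred on epithelial markers (green) and with 1 array left out (purple). The differences of Tfap2c stay between -1.75 and -0.93 and those of Cebpd between 0.83 and 1.72, whereas those of Nfic and Cebpb lie on both sides of 0.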

How the data were processed

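Mammary RNA was measured on 4 arrays. The authors deposited 1 linear intensity per probe set, and the submitters' processing notes name MAS5. Its version and settings are not given in the sources used here, and no detection calls were used. Of 45101 probe sets, 64 controls were left out. Symbols came from the platform annotation: 34945 probe sets had 1 symbol, 932 several and 9160 none here. All 10 members matched an Entrez entry, and no symbol changed.

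Signals were transformed as log2(signal + 16), a scale that compresses differences of dim genes. Probe sets with a mean log2 at or above the median, 7.15 (a signal of 126), were tested, 22519 in all. The genotypes were compared in limma 3.58.1 under R 4.3.3 (lmFit, eBayes with a variance trend), with Benjamini-Hochberg adjustment over all of them. A gene is its brightest probe set. The fit was tested on simulated data. The p-values reflect the spread among these 4 arrays alone, and their number limits the precision.

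Genotype came from the labels, and replicates were numbered in order of deposit, so numbers pair no arrays. Lists are described by counts and medians without a test: other family members, luminal lineage regulators, partners and modulators, milk genes, acute phase genes, fat cell genes, and markers of epithelium, basal cells, white and brown fat, fibroblasts, endothelium, macrophages, T cells, B cells and skeletal muscle. From each list up to 4 genes past the threshold with the smallest p are named or, where none passed, up to 2 with the largest difference. The members and lists were chosen with earlier results of these data known. The array's genome build is not given, so no probe set is placed on the genome.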

Additional observations from a re-analysis of the deposited data

How the results depend on the processing

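The 10 members were refitted under 13 alternatives, except Tfap2a, which was too dim for the 75th percentile filter. Of these results 121 kept their direction and side of the threshold. The number of members past the threshold was 0 in 10 alternatives and 1, Cebpd, when centred on epithelial markers (1.48). Leaving out an array it was 0 to 1, and Cebpd passed without KO replicate 1 (1.72) and Tfap2c without KO replicate 2 (-1.59). In those last 2 fits the lone KO array is assumed to vary like the WT arrays. Cebpb changed sign when centred on the array median (0.064), centred on epithelial markers (0.19) and without KO replicate 1 (0.15). It was -0.19 without KO replicate 2. Nfic changed sign when centred on epithelial markers (0.024) and without WT replicate 1 (0.065), and was -0.44 without WT replicate 2. With an array left out, Tfap2c ranged from -1.75 to -0.93 and Cebpd from 0.83 to 1.72. Centring on epithelial markers moved the median difference of all tested genes from -0.01 to 0.20 and that of the members from -0.22 to -0.01.

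Of all genes, 292 passed, against 194 centred on epithelial markers, 27 with no filter, 198 averaging all probe sets of a gene, 137 without the trend, 127 with the 75th percentile filter, and 44 to 599 leaving out an array. Of the calls 47.3% were higher in KO, and 61.7% when centred on the array median, 61.3% when centred on epithelial markers. Among paralog pairs, 72 of 80 values kept their sign. The Nfib to Nfix ratio turned to -0.15 averaging all probe sets of a gene and ran from -0.11 to 0.19 over the fits that left out an array, that of Nfic to Nfix turned to -0.047 with that mean and ranged from -0.021 to 0.24, and that of Nfib to Nfic ranged from -0.34 to 0.21. The cause of these changes was not tested. The summaries of the lists were recomputed under the same alternatives, a choice made after seeing the data. No paired analysis was possible because the labels carry no replicate numbers.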

Other observations

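Among all tested genes 1.36% fell and 1.21% rose past the threshold, and the marker counts here are set beside these shares. Of 9 basal and myoepithelial markers 1 fell, the oxytocin receptor gene Oxtr (-0.89, limma adjusted p = 0.0425), with a list median of -0.26. Oxtr did not pass with a WT array left out (adjusted p = 0.139 and 0.153) or without KO replicate 1 (0.0631). Of 16 epithelial markers 1 rose, Krt7, a keratin of simple epithelia (1.02, adjusted p = 0.0484), and it did not pass with a WT array left out (adjusted p = 0.137 and 0.194). Of 5 brown fat markers 1 fell, Ucp1, the uncoupling protein (-2.66, adjusted p = 0.0228), with a median of -0.91. Of 7 fibroblast markers 0 passed (median 0.07), Pdgfra and Mfap5 giving 0.30 and 0.28, and of 7 endothelial markers 0 passed (median 0.03), Kdr and Cdh5 giving 0.22 and 0.15. The T cell markers Cd3e and Thy1 gave -1.21 and 0.07, and no B cell marker was bright enough to be tested. Of 9 skeletal muscle markers 5 rose and 0 fell, with a median of 2.85. Myh4, a fast myosin gene, rose by 3.30 (adjusted p = 0.0138), Tnnc2 by 2.85 (0.0297), Myh1 by 2.51 (0.0395) and Pvalb by 2.34 (0.0451). The WT signals of these 4 were 115 and 69.3, 88.4 and 36.8, 68.0 and 28.6, and 96.4 and 51.6, below the filter limit of 126, so they were tested through their KO signal and had to differ, and the sizes depend on the constant added before log2. With a constant of 64 they were 2.82, 2.24, 1.85 and 1.85. All 4 lost their call without WT replicate 2 (adjusted p of 0.0538 to 0.189), and Pvalb also without WT replicate 1 (0.0661). Muscle markers summed to 1384 and 436 on the WT arrays and to 9675 and 5706 on the KO arrays, and their part in the values of the 10 factors was not tested.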
